A study of Arabidopsis thaliana with 30 samples.

Results

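Leaf 3 of Arabidopsis thaliana seedlings 12 days after stratification was compared with leaf 3 at 10 days. The comparison holds the 6 arrays of the untreated time course whose titles give these ages, 3 at day 10 and 3 at day 12, out of 30 arrays in the series. All plants were of the Col-0 ecotype, carried no transgene or mutation named in the labels, and grew on MS medium, a standard salt medium, under days of 16 h light, nights of 8 h and 22 °C. No treatment was given to either group. The 3 arrays of an age are biological repeats per the labels, and the labels do not give how many leaves each holds or the hour of harvest. The time course as a whole covers days 8 to 13 with 18 arrays, and 12 further arrays of a norflurazon experiment were not used. Each array gives 1 log2 signal for each of 30237 probe sets, most of them 1 gene locus.

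A young Arabidopsis leaf first grows by cell division throughout the blade. Division then stops from the tip towards the base while cells behind this front expand, loosen their walls, take up water and begin to duplicate their DNA without dividing. Chloroplasts mature, stomata form and veins become able to export sugar during the same period, and dispersed cells of the stomatal lineage go on dividing for some time. Mitotic cyclins and their kinases mark cells about to divide, whereas expansins, which loosen cell walls, and aquaporins, which pass water, belong to expansion.

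Changes are differences of means of 3 arrays on the log2 scale, day 12 minus day 10, ± the standard error of a limma fit to the 18 arrays of the time course. A gene is called when its Benjamini-Hochberg adjusted p over all 30237 probe sets was under 0.05, and "rose" and "fell" are used only of such genes. Each p-value sets the change against the spread of repeats within the ages of all 18 arrays, and the number of arrays limits its precision. Array medians were 3.50 to 3.61 at day 10 and 3.60 to 3.63 at day 12, and arrays of the same age correlated at 0.976 to 0.987 and at 0.978 to 0.982. On the first principal component, with 53.6% of the variance, day 10 replicate 1 lay at -9.29 and the other day 10 arrays at 1.1 and 2.36, while day 12 replicate 3 lay at 45.6 and its group at 29.8 and 31.6. Their estimated limma array weights were 0.56, the lowest of the 18 arrays, and 0.789. Calls and counts that changed when 1 of the 6 arrays was left out are given with that array. No detection call exists, so a change whose dimmer group has a mean at or below 3.59, the median of all values, is called a lower limit of its size. In bulk RNA, fewer cells of a type and less RNA per cell cannot be told apart. Of 11 shoot meristem and organ boundary markers 9 were at or below that median in both groups, STM, CLV3 and WUS among them, and so were 8 of 9 root markers. The mean level of the meristem list was 3.21 to 3.41 on the day 10 arrays and 3.24 to 3.36 on the day 12 arrays.

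Between day 10 and day 12, 2005 probe sets changed (6.63% of all tested), 1021 of them upwards (3.38%) and 984 downwards (3.25%). Most changes were small: 219 rose and 120 fell by at least 1 log2 unit, and the median change was 0.72 among those that rose and -0.62 among those that fell. Over all probe sets the median change was 0.02. All day 12 arrays lay above all day 10 arrays for 12.5% of the probe sets and below them for 10.7%, and 1005 of the 1021 and 976 of the 984 called probe sets belonged to these. Centring each array on its own median turned the split into 727 higher and 1143 lower. Without day 10 replicate 2 the count was 1257, without day 12 replicate 3 it was 1008, and a fit of the 6 arrays alone called 1016.

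**Figure D1:**
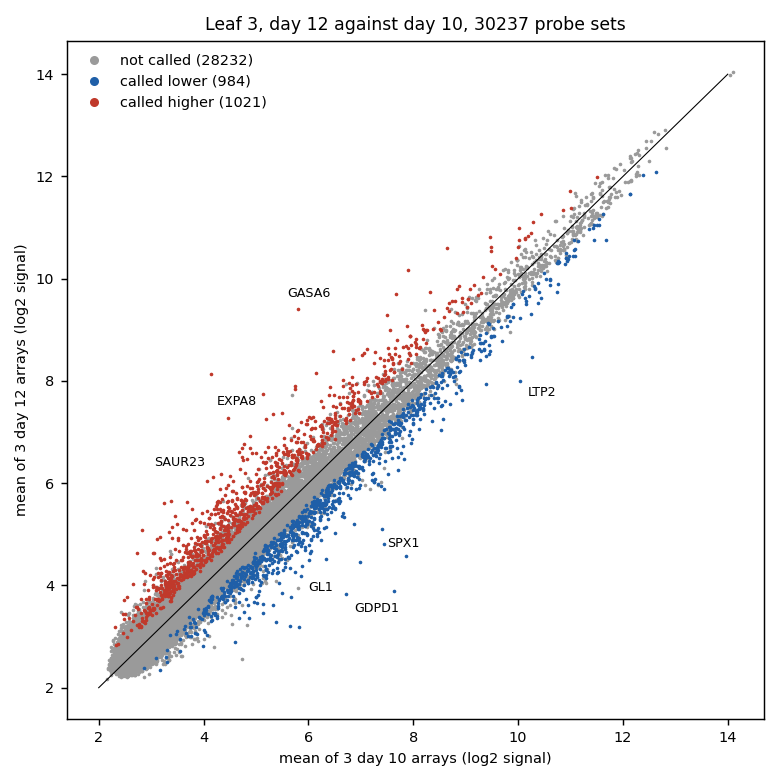
Mean log2 signal of 30237 probe sets on the 3 day 10 arrays (horizontal axis) and the 3 day 12 arrays (vertical axis), with a line of equality; red points are the 1021 called higher, blue points the 984 called lower and grey points those not called. GASA6 and EXPA8 lie far above the line, and GDPD1, SPX1, LTP2 and GL1 far below it.

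Most measured genes of mitosis and cytokinesis fell. Of 41 measured members of this list 25 fell and 0 rose, with a median change of -0.74, and for 29 every day 12 array was below every day 10 array. KN (AT1G08560), a syntaxin that fuses vesicles at the forming cell plate, gave 8.08, 8.04 and 8.21 on the day 10 arrays and 7.13, 7.30 and 6.76 on the day 12 arrays. The groups were apart, and KN fell by 1.04 ± 0.16 (adjusted p = 0.0012). CYCB1;1 (AT4G37490), a cyclin made from late G2 to mitosis, stood at 5.78, 5.77 and 5.59 at day 10 and at 4.91, 4.97 and 4.40 at day 12. Its change was -0.95 ± 0.14 (adjusted p = 0.000671), and day 12 replicate 3 was the lowest array for KN and CYCB1;1 alike.

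The largest falls of the list belonged to CYCB1;4 (AT2G26760, -1.27 ± 0.17), CYCB1;2 (AT5G06150, -1.23 ± 0.22) and MAD2 (AT3G25980, -1.2 ± 0.19), the last a protein of the spindle checkpoint. CYCB1;4 gave 6.52, 6.60 and 6.79 at day 10 and 5.47, 5.63 and 4.99 at day 12. The plant-specific mitotic kinases CDKB1;1 (AT3G54180) and CDKB2;1 (AT1G76540) fell by 0.98 ± 0.14 and 1.14 ± 0.14. For CDKB2;1 the day 10 arrays read 7.32, 7.21 and 7.09 and the day 12 arrays 6.27, 6.09 and 5.83. Other called members were the Aurora kinase AUR1 (-0.89 ± 0.12), the checkpoint kinase BUBR1 (-1.03 ± 0.18), the microtubule-associated protein PLE (-1.02 ± 0.16), the kinesin HIK (-0.72 ± 0.15) and CDC20.1, an activator of the anaphase-promoting complex (-1.19 ± 0.24). Its neighbouring copy CDC20.2 was spread over 4.87 to 6.07 at day 10 and 4.04 to 5.58 at day 12, the groups overlapped, and it was not called (-0.79 ± 0.35, adjusted p = 0.232). MYB3R1 and MYB3R4, transcription factors of G2 and M phase genes, gave changes of 0.02 and -0.14 and were not called. The count of 25 was 19 to 26 with any 1 of the 6 arrays left out.

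**Figure D2:**
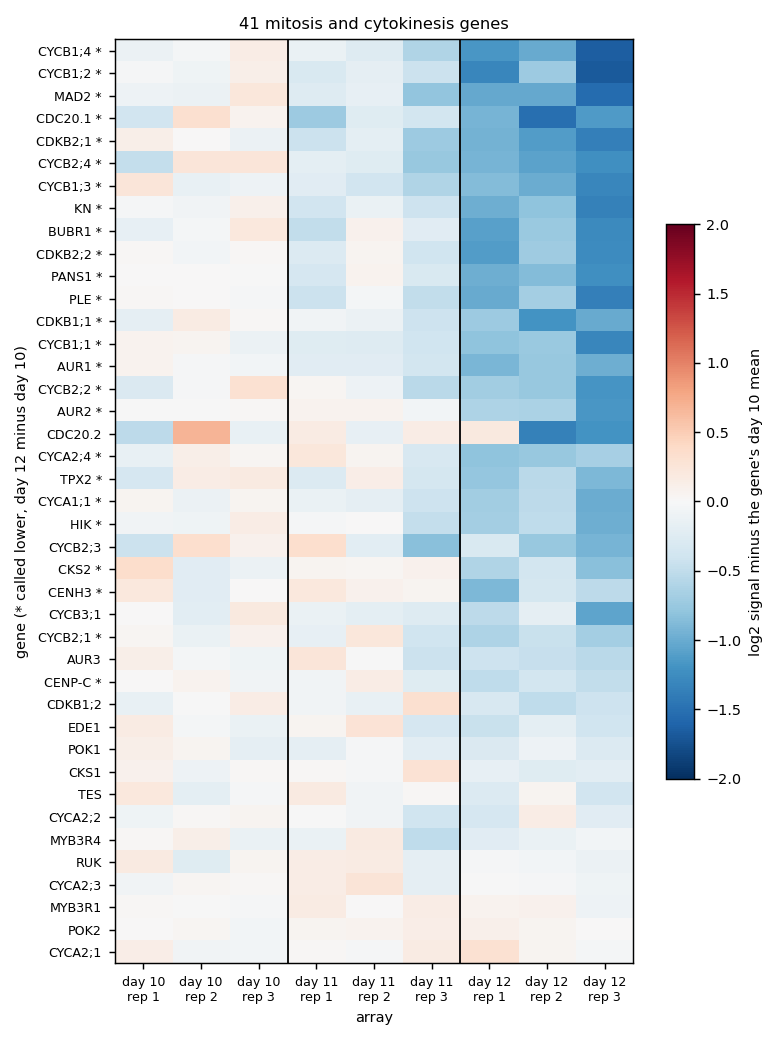
Log2 signal of 41 mitosis and cytokinesis genes (rows, ordered by change) on each array of days 10, 11 and 12 (columns), minus the gene's day 10 mean; blue is lower and an asterisk marks the 25 called lower. The day 12 columns are blue for most rows, most deeply for replicate 3, while the day 11 columns stay paler.

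A smaller number of DNA replication genes was called. Of 34 measured members 6 fell and 0 rose, and the median change was -0.17. PCNA2 (AT2G29570), a subunit of the sliding clamp of DNA polymerase, gave 8.37, 8.02 and 8.21 at day 10 and 7.55, 7.61 and 7.46 at day 12, without overlap, and fell by 0.66 ± 0.13 (adjusted p = 0.0064). The other called members were ORC6 of the origin recognition complex (-0.82 ± 0.16), the ribonucleotide reductase subunit TSO2 (-0.61 ± 0.13), the helicase subunit MCM7 (-0.59 ± 0.13), CDC45 (-0.48 ± 0.11) and PCNA1 (AT1G07370, -0.56 ± 0.14). CDC45 lost its call without day 12 replicate 3 (adjusted p = 0.0602), and so did PCNA1 without day 10 replicates 1 or 3 or day 12 replicates 2 or 3 (highest adjusted p = 0.134). In the preceding interval, from day 8 to day 10, 25 of the 34 replication genes had fallen (median -0.56) and 8 of the 41 mitosis genes (median -0.18), against 11% of all probe sets called lower and 6.47% called higher in that interval (17.5% in either direction). Of all probe sets 0.579% were called negative for the difference between the intervals. This difference was called for 0 of the 34 replication genes and for 2 of the 41 mitosis genes, both negative. The latter count was 0 with day 10 replicates 2 or 3 or day 8 replicates 2 or 3 left out, 1 with day 12 replicate 3 left out and 4 with day 8 replicate 1 left out, and 1 replication gene was called with day 10 replicate 1 left out. The number of replication genes called at days 10 to 12 was 4 without day 12 replicate 3.

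Genes of the replication-dependent histone H3.1 fell in both intervals. All 5 measured loci were called, and each kept its call with any 1 of the 6 arrays left out. AT1G09200 gave 10.36, 10.41 and 10.45 at day 10 and 9.78, 9.72 and 9.71 at day 12, a change of -0.67 ± 0.10 (adjusted p = 0.000838). AT5G10390 fell by 0.68 ± 0.13, AT3G27360 by 0.62 ± 0.09, AT5G10400 by 0.54 ± 0.11 and AT5G65360 by 0.51 ± 0.10. These loci encode nearly identical proteins, so their probe sets may share signal and are not independent.

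Among 28 regulators that promote proliferation, 7 fell and 0 rose (median -0.15). AN3 (AT5G28640), a transcriptional coactivator that prolongs division in leaf primordia, gave 6.46, 6.05 and 6.10 at day 10 and 5.33, 5.61 and 4.19 at day 12. The groups did not overlap, day 12 replicate 3 lay more than 1 unit below its group, and AN3 fell by 1.16 ± 0.30 (adjusted p = 0.0285). Its partners of the GRF family of transcription factors included GRF3 (AT2G36400), which gave 5.56, 5.58 and 5.52 against 4.51, 4.49 and 4.32 and fell by 1.11 ± 0.15 (adjusted p = 0.000383). GRF1 fell by 0.82 ± 0.21, GRF9 by 0.60 ± 0.16 and GRF5 (AT3G13960) by at least 0.78 ± 0.22. CYCD3;3 (AT3G50070), a G1 cyclin, fell by 0.76 ± 0.12 and EBP1, a growth regulator of dividing cells, by 0.58 ± 0.12. ANT (AT4G37750), an AP2-type factor of organ growth, gave 5.20, 5.19 and 5.12 against 4.83, 4.83 and 4.65, which were apart but did not pass the test (-0.40 ± 0.18, adjusted p = 0.235). GRF3 and CYCD3;3 kept their calls with any 1 of the 6 arrays left out. AN3 lost its call without any 1 of the day 10 arrays or day 12 replicate 3 (highest adjusted p = 0.135), GRF1 without day 10 replicates 1 or 3 or day 12 replicates 1 or 3 (0.114), GRF5 without any 1 array except day 10 replicate 3 (0.154), GRF9 without any 1 array except day 12 replicate 2 (0.145) and EBP1 without day 12 replicate 3 (0.0502). The count of 7 became 3 without day 10 replicate 1, 4 without day 10 replicate 2 or 3 or day 12 replicate 1, and 2 without day 12 replicate 3.

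Listed regulators that restrict proliferation were not called, and a list of endocycle genes and kinase inhibitors changed in both directions. None of 8 CIN-type TCP factors, which restrain division at the leaf margin, and none of 14 other regulators that restrict proliferation was called. TCP4 (AT3G15030) gave 6.73, 6.76 and 6.66 at day 10 and 6.72, 6.98 and 6.87 at day 12, which overlap (0.14 ± 0.17, adjusted p = 0.743). Of 25 genes of the endocycle and of inhibitors of cyclin-dependent kinases, 1 rose and 2 fell. This list joins activators and inhibitors, so its counts do not describe 1 side of the transition. SMR1 (AT3G10525), a SIAMESE-related inhibitor, gave 5.24, 5.85 and 6.18 against 6.67, 6.87 and 6.85 and rose by 1.04 ± 0.24 (adjusted p = 0.0142). KRP3 (AT5G48820), another inhibitor, fell by 1.12 ± 0.28, and FZR3, which belongs to the CCS52 activators of protein breakdown in the cell cycle, by 0.66 ± 0.17. SIM (AT5G04470), the founding member of its family, changed by -0.39 ± 0.24 and FZR2 (AT4G22910), which promotes endocycles, by 0.04 ± 0.18, and neither was called (adjusted p = 0.43 and 0.943). SMR1 lost its call without day 10 replicate 1 or day 12 replicate 3 (highest adjusted p = 0.0694), KRP3 without day 10 replicate 1 or day 12 replicates 1 or 3 (0.124), and FZR3 without day 10 replicates 2 or 3 or day 12 replicates 1 or 3 (0.117).

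**Figure D3:**
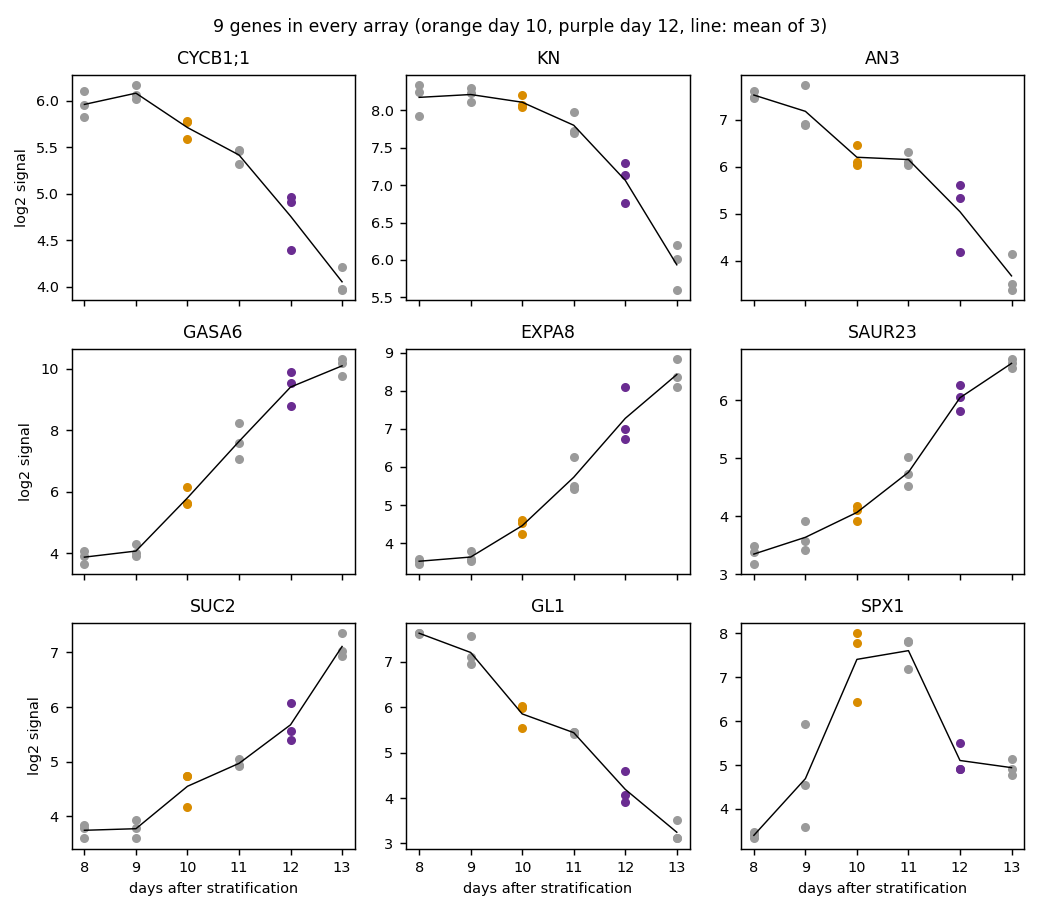
Log2 signal of 9 genes on each of the 18 arrays against days after stratification; points are arrays, orange at day 10 and purple at day 12, and lines join means of 3. CYCB1;1, KN, AN3 and GL1 decline from day 10 to day 12, and GASA6, EXPA8, SAUR23 and SUC2 climb. SPX1 is high at days 10 and 11 and lower at day 12, where its mean stays above that of day 8.

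The largest rise of all genes with a symbol was that of GASA6 (AT1G74670), a small secreted peptide of the gibberellin-stimulated GASA family. It gave 6.15, 5.63 and 5.61 at day 10 and 9.52, 8.79 and 9.89 at day 12, more than 2 units apart, and rose by 3.60 ± 0.28, which is 12.2-fold (adjusted p = 7.39e-06). It was 1 of 7 measured GASA genes and the only one called. Second was the alpha-expansin EXPA8 (AT2G40610), at 4.24, 4.61 and 4.53 and then at 6.99, 6.73 and 8.10, a rise of 2.81 ± 0.29 (adjusted p = 8.69e-05). SAUR23 (AT5G18060), an auxin-induced protein of the SAUR group that promotes cell expansion, gave 4.17, 3.92 and 4.10 against 6.26, 5.81 and 6.05 and rose by 1.98 ± 0.15 (adjusted p = 7.39e-06). PRE1 (AT5G39860), a small helix-loop-helix protein that favours elongation, rose by 1.84 ± 0.30 (adjusted p = 0.00175). These 4 genes kept their calls with any 1 of the 6 arrays left out.

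Wall and water genes changed through few members of large families. Of 34 measured expansins 5 rose and 0 fell, and the list median was 0.09. Besides EXPA8, EXPA1 (AT1G69530) rose by 1.25 ± 0.17, EXPB1 (AT2G20750) by 1.19 ± 0.19, EXLB1 (AT4G17030) by at least 1.61 ± 0.21 and EXPA14 by 0.41 ± 0.09. EXPA1 gave 6.67, 6.89 and 6.41 at day 10 and 7.87, 7.78 and 8.05 at day 12, with no overlap. EXPA14 lost its call without day 12 replicate 3 (adjusted p = 0.0555). Of 33 xyloglucan endotransglucosylases, which cut and rejoin wall polymers, 3 fell and 0 rose. XTH9 (AT4G03210) fell by 0.82 ± 0.12 from 10.08, 9.97 and 10.07 to 9.30, 9.22 and 9.15, XTH24 by 1.22 ± 0.24 and XTH15 by at least 0.64 ± 0.18, the last losing its call without any 1 of the 6 arrays (highest adjusted p = 0.126). Among 22 aquaporins 5 rose and 0 fell (median 0.20). PIP2;6 (AT2G39010) gave 7.99, 8.19 and 8.36 against 9.02, 8.88 and 9.17 and rose by 0.85 ± 0.12 (adjusted p = 0.000887), and it alone of the 5 kept its call in every fit that left out an array. The others were PIP2;2 (1.19 ± 0.30), PIP1;5 (1.11 ± 0.27), PIP1;1 (0.87 ± 0.18) and TIP2;1 (0.65 ± 0.16). PIP2;2 lost its call without any 1 array except day 12 replicate 2 (highest adjusted p = 0.121), TIP2;1 without day 10 replicates 1 or 2 or day 12 replicates 1 or 3 (0.128), PIP1;5 without day 10 replicate 1 or day 12 replicate 3 (0.0862) and PIP1;1 without day 12 replicate 3 (0.0502). Leaving out day 10 replicate 1 gave 2 called aquaporins, day 10 replicate 2 or day 12 replicate 1 gave 3, day 12 replicate 3 gave 1, and the fit of the 6 arrays alone gave 2. The cellulose synthase CESA2 was the only called member of 10 primary wall cellulose genes (0.53 ± 0.10), and none of 6 secondary wall genes was called.

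**Figure D4:**
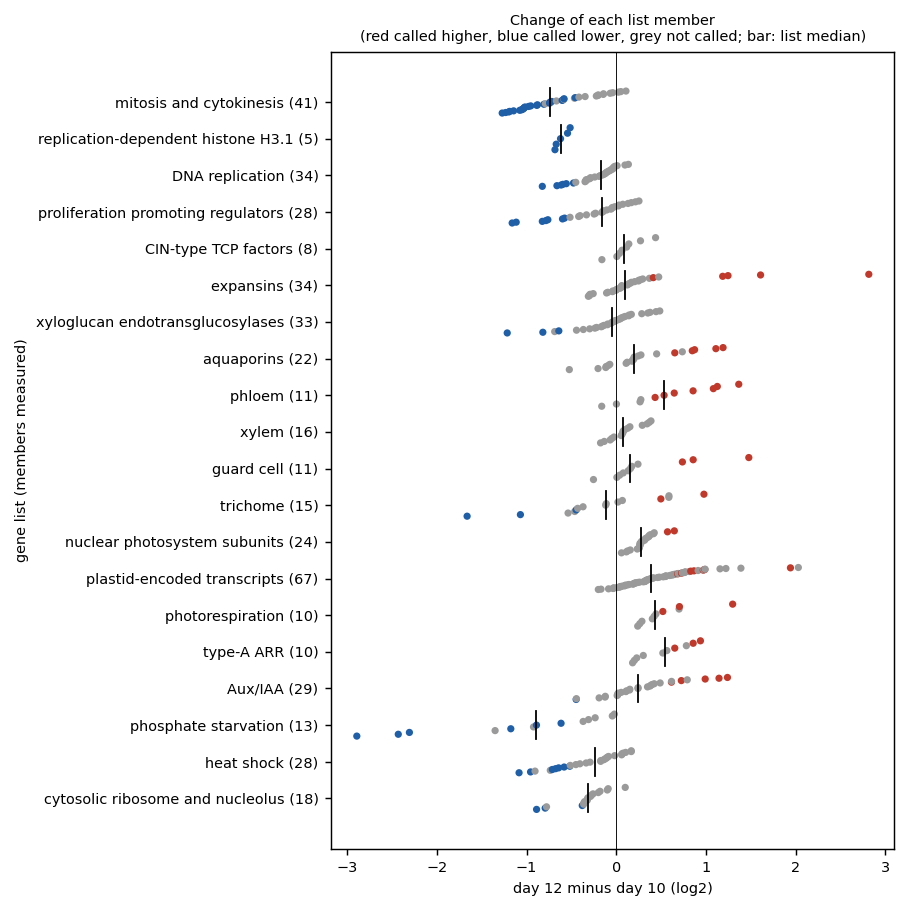
Change from day 10 to day 12 of each measured member of 20 gene lists (horizontal axis, log2 units); red points are called higher, blue points called lower, grey points not called, and the bar is the list's median. Mitosis and histone H3.1 members lie left of 0, phloem and type-A ARR members mostly right of it, and expansins show a few far points to the right of a group near 0.

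Most nuclear genes of the photosystems did not pass the test. Of 24 nuclear photosystem subunits every one had a positive change, from 0.06 to 0.65. Of these 2 were called (8.33%, against 3.38% of all probe sets called higher), and for 13 the day 12 arrays were all above the day 10 arrays. PSAD-2 (AT1G03130), which docks ferredoxin at photosystem I, gave 9.94, 10.25 and 10.20 against 10.64, 10.57 and 11.10 and rose by 0.65 ± 0.17 (adjusted p = 0.0333). PSBP-2 rose by 0.57 ± 0.16 although its day 12 replicate 3 (3.88) lay below day 10 replicate 3 (3.91). Both lost the call without day 10 replicates 1 or 2, PSAD-2 also without day 10 replicate 3 or day 12 replicate 3, and PSBP-2 without day 12 replicates 1 or 2 (highest adjusted p = 0.17 for each). The count of 2 was 0 without day 10 replicate 1, 1 without day 10 replicate 2 or 3 or day 12 replicate 2 or 3, 9 after a further quantile normalization, and 0 after centring on array medians and in the fit of the 6 arrays alone. LHCB7 of 10 photosystem II antenna genes (0.55 ± 0.10) and LHCA6 of 6 photosystem I antenna genes (0.76 ± 0.21) rose. LHCB1.4 (AT2G34430), a major antenna protein, overlapped between the groups at 10.19, 11.09 and 10.90 against 11.17, 10.71 and 11.48 (0.40 ± 0.27, adjusted p = 0.484). LHCA6 lost its call without any 1 array except day 12 replicate 2 (highest adjusted p = 0.19). From day 8 to day 10, 23 of the 24 photosystem genes had risen, against 6.47% of all probe sets. Their median change was 0.81 then and 0.28 from day 10 to day 12. For the difference between the intervals, 0.579% of all probe sets were called negative. The difference between the intervals was called for 1 of the 24, for 7 with day 10 replicate 1 left out, for 2 with day 12 replicate 3 or day 8 replicate 1 left out, for 0 with any other 1 array of days 8, 10 and 12 left out, and for 12 after a further quantile normalization.

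Most listed genes of the Calvin cycle and photorespiration were not called, and of all probe sets 3.38% were called higher. The regulator CP12-2 (AT3G62410), which binds 2 Calvin cycle enzymes, gave 7.27, 7.63 and 7.75 against 8.80, 8.79 and 9.39 and rose by 1.44 ± 0.34 (adjusted p = 0.0178). The carbonic anhydrase CA2 (AT5G14740) rose by 1.05 ± 0.27 and the dehydrogenase GAPA-2 by 0.39 ± 0.11. This made 3 of 19 measured Calvin cycle and related genes (15.8%). CA1 (AT3G01500) at 10.47, 11.55 and 11.24 against 11.56, 11.39 and 12.07 overlapped and was not called (0.58 ± 0.48, adjusted p = 0.583), nor was the Rubisco gene RBCS1A (AT1G67090, -0.04 ± 0.32, adjusted p = 0.972). In photorespiration 3 of 10 genes rose (30%): the peroxisomal catalase CAT2 (AT4G35090, 1.30 ± 0.28), the aminotransferase GGT1 (0.70 ± 0.20) and the glutamate synthase GLU1 (0.52 ± 0.10). Day 10 replicate 1 was the lowest array for CP12-2, CA2, CA1, CAT2 and GGT1. CP12-2 lost its call without day 10 replicate 1 or day 12 replicate 3 (highest adjusted p = 0.0942), CA2 without day 10 replicates 1 or 3 or day 12 replicate 3 (0.144), GGT1 without day 10 replicates 1 or 3 or day 12 replicates 1 or 3 (0.2), GAPA-2 without any 1 array except day 12 replicate 2 (0.202), and CAT2 without day 12 replicate 3 (0.052). The Calvin cycle count was 0 without day 10 replicate 1 or day 12 replicate 3 and 1 without day 10 replicate 3, and the photorespiration count was 1 without day 12 replicate 3.

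Most transcripts encoded in the plastid itself did not pass the test. Of 67 measured plastid loci 7 rose (10.4%, against 3.38% of all probe sets) and 0 fell. For 30 all day 12 arrays lay above all day 10 arrays, and the median change was 0.39. Their mean level was 6.79, 6.97 and 6.92 on the day 10 arrays and 7.39, 7.40 and 7.34 on the day 12 arrays. ATCG00020 changed most among the called loci, from 4.97, 4.18 and 4.87 to 6.32, 6.82 and 6.70, a rise of 1.94 ± 0.40 (adjusted p = 0.0077) that held with any 1 of the 6 arrays left out. ATCG01060 differed by 2.03 ± 0.89 but its arrays overlapped (adjusted p = 0.219). The count of 7 was 1 without day 10 replicate 1, 2 without day 10 replicate 2 or 3 or day 12 replicate 3, 4 without day 12 replicate 1 or 2, and 2 after centring on array medians. Among 12 nuclear genes of plastid transcription the sigma factors SIG3 (AT3G53920, 0.90 ± 0.13), SIG4 (0.65 ± 0.19), SIG1 (0.49 ± 0.13) and SIG5 (at least 0.67 ± 0.19) rose, which direct the plastid-encoded polymerase to promoters. SIG3 gave 4.39, 4.96 and 4.93 against 5.56, 5.64 and 5.77 and kept its call with any 1 of the 6 arrays left out. The count of 4 was 1 without day 10 replicate 1 or day 12 replicate 3 and 2 without any other 1 array. SIG1 lost its call without day 10 replicates 1 or 3 or day 12 replicates 2 or 3 (highest adjusted p = 0.165), SIG4 without any 1 array except day 10 replicate 3 (0.2) and SIG5 without any 1 array except day 12 replicate 2 (0.21). The 5 PTAC genes, RPOTp, SIG2 and SIG6 were not called.

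Other chloroplast lists had 1 called gene per direction at most. The regulator GLK1 (AT2G20570) gave 6.69, 6.90 and 6.72 against 7.32, 7.54 and 7.51 and rose by 0.68 ± 0.19, but lost its call without any 1 of the 6 arrays (adjusted p = 0.0443, highest 0.136). GUN4, a helper of chlorophyll synthesis, rose by 0.44 ± 0.12 among 25 tetrapyrrole genes and lost its call without any 1 of the day 10 arrays or day 12 replicate 3 (highest adjusted p = 0.157). BCH2 (AT5G52570), a carotene hydroxylase, rose by 1.03 ± 0.20 among 16 carotenoid genes and kept its call with any 1 of the 6 arrays left out. PDS3 (AT4G14210), the phytoene desaturase, was not called (0.19 ± 0.17, adjusted p = 0.631). Of 17 genes of plastid division and import PDV2 rose (0.61 ± 0.15) and the import receptor TOC34 fell (-0.58 ± 0.14). PDV2 lost its call without day 10 replicates 1 or 2 or day 12 replicates 1 or 3 (highest adjusted p = 0.113), and TOC34 without day 10 replicates 1 or 3 or day 12 replicates 2 or 3 (0.0664).

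Of the cell type lists, phloem had the highest share of called members, with 7 of 11 higher and 0 lower and a median of 0.53. SUC2 (AT1G22710), the sucrose transporter of companion cells, gave 4.17, 4.75 and 4.74 at day 10 and 5.56, 5.40 and 6.07 at day 12 and rose by 1.13 ± 0.18 (adjusted p = 0.00134). The sucrose effluxer SWEET11 (AT3G48740), which feeds the phloem, gave 3.76, 3.38 and 3.41 against 4.60, 4.93 and 5.11 and rose by at least 1.36 ± 0.18. Its close copy SWEET12 was dim and not called (-0.16). The proton pump AHA3 rose by 0.86 ± 0.16, the lectin PP2-A1 by at least 1.08 ± 0.21, the sulfate transporter SULTR2;1 by at least 0.53 ± 0.11, the sieve element protein SEOR1 by at least 0.43 ± 0.12 and APL, the MYB factor of phloem identity, by 0.65 ± 0.16. Of these, APL lost its call without day 10 replicate 1 or day 12 replicate 3 (highest adjusted p = 0.126) and SEOR1 without any 1 of the 6 arrays (0.17). The count was 5 to 6 with any 1 array left out, 5 after centring on array medians and 4 in the fit of the 6 arrays alone.

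Xylem and vein lists had no called member, 0 of 16 and 0 of 8. XCP2 (AT1G20850), a cysteine protease of forming vessels, was spread over 4.10, 5.84 and 5.46 at day 10 against 5.36, 5.62 and 5.47 at day 12 (0.34 ± 0.32, adjusted p = 0.644). Of the 16 xylem markers 9 were at or below the median of all values in both groups. From day 12 to day 13, 5 xylem and 5 phloem members rose, against 1.54% of all probe sets called in that step in either direction.

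Markers of the epidermis changed in a mixed way. GL1 (AT3G27920), the MYB factor that starts trichomes, gave 5.99, 5.55 and 6.02 at day 10 and 3.91, 4.60 and 4.06 at day 12 and fell by 1.66 ± 0.18 (adjusted p = 0.000143). Its relative MYB23 (AT5G40330) fell by 1.07 ± 0.21, and TRY (AT5G53200), an inhibitor of the trichome fate, rose by 0.98 ± 0.23 from 4.35, 4.40 and 4.34 to 5.12, 5.43 and 5.47. With TTG2 lower (at least 0.45 ± 0.11) and ZFP8 higher (0.50 ± 0.12), 3 of 15 trichome genes fell and 2 rose. TRY lost its call without day 12 replicates 2 or 3 (highest adjusted p = 0.0729), TTG2 without any 1 day 10 array or day 12 replicate 1 (0.0988), and ZFP8 without day 10 replicates 1 or 3 or day 12 replicates 2 or 3 (0.0916). Of 16 genes of epidermis and cuticle, the lipid transfer protein LTP2 (AT2G38530) fell by 2.04 ± 0.31 (adjusted p = 0.00103) from 10.33, 9.89 and 9.90 to 7.72, 8.73 and 7.54, and DCR, an acyltransferase of cutin synthesis, by 1.11 ± 0.24. The call of DCR was lost without day 10 replicate 2 (adjusted p = 0.0572).

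In the stomatal lineage 2 of 18 genes rose and 0 fell. EPF1 (AT2G20875), a peptide that spaces stomata, gave 5.0, 5.14 and 5.29 against 6.30, 6.11 and 5.51 and rose by 0.84 ± 0.20, and EPFL9, the peptide that promotes them, by 0.74 ± 0.19. The 3 factors that act in sequence were not called: SPCH (AT5G53210), the first, was lower on every day 12 array (-0.54 ± 0.18, adjusted p = 0.0839), while MUTE (AT3G06120) and FAMA (AT3G24140) were higher on every day 12 array (0.48 ± 0.15 and 0.31 ± 0.12, adjusted p = 0.0784 and 0.172). SPCH gave 5.50, 5.79 and 5.58 at day 10 and 5.13, 5.26 and 4.86 at day 12. Of 11 guard cell genes 3 rose, the carbonic anhydrase BCA4 (AT1G70410, 1.48 ± 0.25), the potassium channel KAT1 (at least 0.86 ± 0.14) and MYB60 (at least 0.74 ± 0.18). TGG1 (AT5G26000), a myrosinase of guard and myrosin cells, gave 7.77, 9.61 and 8.80 against 8.82, 8.66 and 8.73 and was not called (0.01 ± 0.43, adjusted p = 0.998). EPF1 lost its call without day 10 replicates 1 or 2 or day 12 replicates 1 or 2 (highest adjusted p = 0.0886), EPFL9 without any 1 array except day 10 replicate 1 (0.102), and MYB60 without day 10 replicates 1 or 2 or day 12 replicates 1 or 3 (0.0821). The stomatal count was 0 without day 10 replicate 2 or day 12 replicate 1 or 2 and 1 without any other 1 array.

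Some auxin and cytokinin response genes changed, those of auxin in both directions. Among 29 Aux/IAA genes, repressors that auxin both induces and destroys, 5 rose and 1 fell (median 0.24). IAA7 (AT3G23050) gave 4.83, 5.11 and 5.15 against 6.43, 5.62 and 6.76 and rose by 1.24 ± 0.25 (adjusted p = 0.00701). IAA3 rose by at least 1.15 ± 0.19, IAA17 by 0.99 ± 0.21, IAA18 by 0.72 ± 0.15 and IAA16 by 0.61 ± 0.17, and IAA9 fell by 0.45 ± 0.12. In the GH3 family of enzymes that conjugate auxin and other acids, GH3.3 (AT2G23170) fell by at least 1.51 ± 0.21 from 4.87, 4.95 and 4.79 to 3.30, 3.47 and 3.31, and GH3.12 rose by at least 0.62 ± 0.14, with 8 others not called. Of 10 type-A ARR genes, which cytokinin induces, 3 rose and 0 fell, all 10 changes were positive, and the median was 0.54. ARR4 (AT1G10470) gave 6.91, 6.65 and 6.98 against 7.69, 7.60 and 7.82 and rose by 0.86 ± 0.15 (adjusted p = 0.00285), ARR15 by 0.94 ± 0.13 and ARR9 by 0.65 ± 0.14. None of 18 gibberellin and 8 brassinosteroid genes was called. ARR9 lost its call without day 10 replicate 2 or day 12 replicates 1 or 3 (highest adjusted p = 0.0584), IAA16 without day 10 replicates 1 or 3 or day 12 replicates 1 or 3 (0.213), IAA9 without any 1 array except day 10 replicate 1 (0.175) and GH3.12 without day 10 replicate 2 or day 12 replicate 3 (0.064). The count of 3 type-A genes was 2 without day 12 replicate 3, and the Aux/IAA count was 3 in the fit of the 6 arrays alone.

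Genes that plants induce when phosphate is short contained 3 of the 4 largest falls among genes with a symbol. Of 13 measured members 6 fell and 0 rose, with a median of -0.89. GDPD1 (AT3G02040), a phosphodiesterase that recycles phosphate from lipids, gave 5.37, 7.35 and 7.46 at day 10 and 3.42, 4.54 and 3.55 at day 12 and fell by 2.89 ± 0.50 (adjusted p = 0.00246). SPX1 (AT5G20150), a sensor protein of phosphate status, gave 6.43, 7.79 and 8.01 against 4.91, 5.50 and 4.90 and fell by 2.31 ± 0.45 (adjusted p = 0.00542). PS2 (AT1G73010), a phosphatase, stood at 3.69, 6.60 and 6.65 and then at 3.27, 3.25 and 3.13, a change of -2.43 ± 0.54 that is a lower limit of its size. SQD1, an enzyme of sulfolipid synthesis, fell by 1.18 ± 0.29, the transporter PHT1;4 by at least 0.89 ± 0.13 and SPX2 by 0.61 ± 0.16. Day 10 replicate 1 was the lowest of its group for all 6, and the mean level of the list was 4.61 there against 5.48 and 5.65 on the other day 10 arrays and 4.11 to 4.32 at day 12.

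This group did not follow one direction over the time course. From day 8 to day 10, 8 of the 13 phosphate genes had risen and 1 had fallen (median 1.0), against 6.47% and 11% of all probe sets. The difference between the intervals was called for 7 of the 13, all negative, against 0.579% of all probe sets called negative. The count was 4 with day 10 replicates 2 or 3 left out. SPX1 averaged 3.40 at day 8, 7.41 at day 10, 7.61 at day 11, 5.10 at day 12 and 4.94 at day 13. The count of 6 genes that fell from day 10 to day 12 was 7 without day 10 replicate 1. It was 3 without day 10 replicate 2 or 3 and 4 without day 12 replicate 3. PS2 lost its call without day 10 replicates 2 or 3 (highest adjusted p = 0.0673), SQD1 without day 10 replicates 2 or 3 or day 12 replicates 2 or 3 (0.101) and SPX2 without day 10 replicates 2 or 3 or day 12 replicates 1 or 3 (0.121). No member of the sulfur starvation list (0 of 13) or of the iron deficiency list (0 of 15) was called from day 10 to day 12. From day 8 to day 10, 7 and 8 of them had risen, against 6.47% of all probe sets.

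Called genes of protein synthesis and folding were all lower at day 12, and most members of both lists were not called. Of 18 genes of the cytosolic ribosome and nucleolus 3 fell and 0 rose, and for 11 every day 12 array lay below every day 10 array (median -0.32). NOP56 (AT1G56110), a nucleolar protein of ribosomal RNA modification, fell by 0.89 ± 0.16 from 8.39, 8.57 and 8.48 to 7.78, 7.59 and 7.40, NUC-L1 by 0.79 ± 0.20 and RPS6A by 0.38 ± 0.10. The heat shock list had 7 of 28 members lower and 0 higher. The called members were the mitochondrial chaperonins HSP60 (AT3G23990, -0.95 ± 0.17) and HSP60-2 (-1.08 ± 0.25), HSP90-7 of the endoplasmic reticulum (-0.71 ± 0.14), the cytosolic HSP70-2, HSP70 and HSP81-2 (-0.68, -0.64 and -0.58) and the plastid HSP93-III (-0.52). The stress-induced HSP101, HSP17.6A and HSP18.2 were dim in both groups. HSP60 gave 7.29, 7.42 and 7.33 against 6.51, 6.41 and 6.25. PDIL1-1 (AT1G21750), a disulfide isomerase of the endoplasmic reticulum and 1 of the 12 largest falls, gave 6.37, 7.28 and 6.94 against 5.27, 5.19 and 5.14 and fell by 1.66 ± 0.17 (adjusted p = 8.69e-05). HSP60, HSP90-7, NOP56 and PDIL1-1 kept their calls with any 1 of the 6 arrays left out. HSP60-2 and NUC-L1 lost their calls without day 10 replicates 2 or 3 or day 12 replicates 2 or 3 (highest adjusted p = 0.0665 and 0.105), RPS6A without any 1 array except day 12 replicate 1 (0.158), HSP70 without day 10 replicate 1 or any 1 day 12 array (0.125), HSP70-2 without day 10 replicate 3 or day 12 replicate 3 (0.0648), HSP81-2 without day 10 replicate 1 or day 12 replicate 3 (0.0915) and HSP93-III without any 1 of the 6 arrays (0.129). The heat shock count was 4 without day 10 replicate 1 or 3 or day 12 replicate 2 and 2 without day 12 replicate 3. The ribosome count was 1 without day 10 replicate 2 or 3 or day 12 replicate 2 or 3, 2 without day 10 replicate 1, and 7 after centring on array medians.

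Called genes of secondary metabolism rose in the glucosinolate list and fell in the flavonoid list. Of 14 glucosinolate genes 4 rose, all of the aliphatic branch made from methionine, and 0 fell. The other aliphatic genes of the list, MYB76, MAM3, CYP79F1 and CYP79F2, were not called, nor was SUR1. Of the 14 changes 10 were positive and 4 negative, and 4 members were at or below the median of all values in both groups. MAM1 (AT5G23010), which lengthens the methionine chain, gave 3.28, 3.79 and 3.76 against 5.46, 4.72 and 5.14 and rose by 1.5 ± 0.22 (adjusted p = 0.000807). CYP83A1 rose by 1.34 ± 0.23, and the MYB factors of the branch, MYB28 (AT5G61420) and MYB29, by 1.2 ± 0.20 and by at least 0.92 ± 0.10. The 4 calls held with any 1 of the 6 arrays left out, whereas none of the measured genes of the indolic branch, CYP79B2, CYP79B3, CYP83B1, MYB34 and MYB51, was called. Of 14 anthocyanin and flavonoid genes LDOX (-1.38 ± 0.36) and TT5 (-0.70 ± 0.17) fell, and DFR overlapped between the groups at 6.75, 7.87 and 7.55 against 6.53, 7.17 and 4.36 (adjusted p = 0.174). Without day 10 replicate 2 or 3 or day 12 replicate 3 neither was called (highest adjusted p = 0.157), and without day 10 replicate 1 the count was 4.

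Of 16 circadian clock genes 3 rose, all of the morning set, and 0 fell, with a list median of 0.07. LNK1, RVE8, PRR9 and PRR7 were not called. LNK2 (AT3G54500) gave 5.62, 6.11 and 6.19 against 7.11, 7.07 and 7.55 and rose by 1.27 ± 0.17 (adjusted p = 0.000382). CCA1 (AT2G46830) rose by 1.02 ± 0.17 and LHY (AT1G01060) by 0.80 ± 0.18, and the evening genes TOC1, GI, LUX and FKF1 were dim, with changes between -0.09 and 0.04. The RNA-binding protein GRP7 (AT2G21660), whose transcript is under clock control, fell by 1.55 ± 0.27 from 7.37, 7.43 and 7.52 to 5.98, 5.68 and 6.02 (adjusted p = 0.00222). LHY lost its call without day 10 replicate 2 or day 12 replicate 3 (highest adjusted p = 0.0799). A role of the hour of harvest in these values was not tested.

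The remaining genes of largest change belong to no list. PCC1 (AT3G22231), a defence-related protein, gave 3.86, 6.16 and 5.38 against 6.96, 8.37 and 7.93 and rose by 2.62 ± 0.52 (adjusted p = 0.00574). ECS1 (AT1G31580) rose by 2.27 ± 0.44, and for both genes day 10 replicate 1 was the lowest array. The methionine sulfoxide reductase MSRB6 (AT4G04840) rose by 2.1 ± 0.28, the membrane protein PCAP1 (AT4G20260) by 2.04 ± 0.31 and the metallothionein MT3 (AT3G15353) by 1.97 ± 0.31. MSRB6 gave 5.75, 5.57 and 5.91 at day 10 and 7.83, 7.39 and 8.32 at day 12. The phosphatase PAP8 (AT2G01890) rose by at least 2.37 ± 0.19, the carboxypeptidase-like SCPL13 by at least 1.90 ± 0.40 and the MYB-type RL4 by at least 1.90 ± 0.22. Falls were found for CDEF1 (AT4G30140), a cutinase, by at least 2.64 ± 0.47, for the glutathione transferase GSTF6 by 1.90 ± 0.54, for the jasmonate-induced CORI3 (AT4G23600) by 1.80 ± 0.36 and for GPT2 (AT1G61800), a plastid glucose phosphate translocator, by 1.5 ± 0.26. CDEF1 gave 6.57, 6.04 and 4.86 against 2.87, 3.14 and 3.55, and it had averaged 10.81 at day 8. SCPL13 lost its call without day 12 replicate 3 (adjusted p = 0.0502) and GSTF6 without day 10 replicates 2 or 3 or day 12 replicates 1 or 3 (highest adjusted p = 0.211).

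Across all 52 lists 868 entries were measured, of which 71 were called higher and 74 lower. For comparison, upward calls made up 3.38% and downward calls 3.25% of the 30237 probe sets. No called member was found in 15 lists. These included defence and pathogenesis-related genes (13), jasmonate and wounding (16), dark and sugar starvation (13) and starch and sugar transport (13). Whether the absence of calls in lists this small departs from the shares of the whole array was not tested. In the list of vegetative phase change SPL2 (0.66 ± 0.15) and SPL10 (0.63 ± 0.17), factors that promote the adult leaf form, rose among 9. SPL2 lost its call without day 10 replicate 1 or day 12 replicates 2 or 3 (highest adjusted p = 0.0673), and SPL10 without any 1 array except day 12 replicate 1 (0.159).

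On the first principal component the day 11 arrays lay at 10.1, 6.48 and 17.7, between those of days 10 and 12. For 977 of the 1021 probe sets that rose and 933 of the 984 that fell, the day 11 mean lay between the means of days 10 and 12. The median share of the change reached by day 11 was 39.4% for those that rose and 39.8% for those that fell. Picking probe sets by their change from day 10 to day 12 favours a day 11 mean in between and affects these shares. No such count was made over all probe sets. In limma 0 probe sets (0%) were called from day 10 to day 11, with 2156 at an unadjusted p under 0.05, and 210 (0.695%) from day 11 to day 12. Mitosis genes had a median change of -0.16 by day 11, against -0.74 by day 12, and 10 of the 41 fell from day 11 to day 12. Phosphate genes averaged over the list gave 5.02, 5.37 and 5.41 on the day 11 arrays, within the range of the day 10 arrays. GASA6 averaged 5.80, 7.63 and 9.40 on days 10, 11 and 12, EXPA8 4.46, 5.73 and 7.27, and TRY 4.36, 4.35 and 5.34. A test of whether the second step differed from the first called 1 probe set (0.00331%), AT2G41730, which has no symbol in the reference table and averaged 4.59 at day 10, 6.46 at day 11 and 3.75 at day 12 (difference of steps -4.58 ± 0.61, adjusted p = 0.0369). At an unadjusted p under 0.05 the test gave 1437 of 30237 probe sets, no more than the share of 0.05 that would pass without any difference. Of the 9 fits that left out 1 array of days 10 to 12, the one without day 11 replicate 1 kept AT2G41730 (adjusted p = 0.0131), among 3 calls. The fits without day 10 replicate 1 or day 11 replicate 2 each called 1 other probe set, and those without any other 1 array called 0.

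The interval was also compared with that from day 8 to day 10, which shares the day 10 arrays with opposite sign, so noise in these arrays alone pushes the intervals apart. The difference between the intervals was called for 476 probe sets (1.57%), 301 of them positive (0.995%) and 175 negative (0.579%), where negative means a smaller rise or a larger fall after day 10 than before it. Leaving out day 10 replicates 1, 2 or 3 gave 770, 67 and 104 calls. Leaving out day 12 replicates 1 or 2 gave 313 and 315, and leaving out day 8 replicates 1, 2 or 3 gave 818, 273 and 252. A further quantile normalization gave 292 positive and 553 negative. SPX1 had a difference of -6.32 ± 0.78 and CA2 of -3.75 ± 0.47, and both calls held with any 1 of the 9 arrays of days 8, 10 and 12 left out. The day 8 mean of SPX1 was below 3.59, so its rise before day 10 is a lower limit. CA2 averaged 4.68, 9.48 and 10.54 at days 8, 10 and 12, so most of its rise came before day 10.

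**Figure D5:**
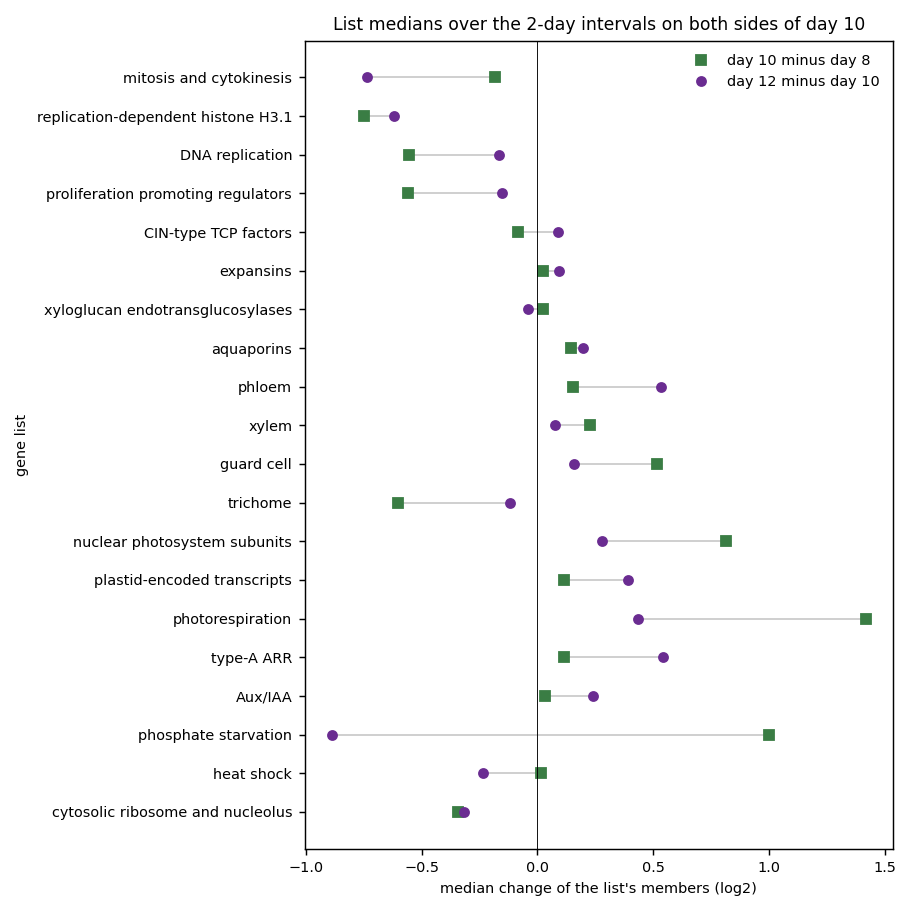
Median change of the members of 20 gene lists (rows) from day 8 to day 10 (green squares) and from day 10 to day 12 (purple circles), in log2 units on the horizontal axis; both intervals use the day 10 arrays. Mitosis genes lie at -0.18 and then at -0.74, DNA replication genes at -0.56 and then at -0.17, and phosphate starvation genes at 1.0 and then at -0.89.

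How the earlier and later calls relate was counted for the called probe sets. Of the 1021 that rose, 424 had also been called higher from day 8 to day 10, 45 had been called lower and 552 had not been called. Of the 984 that fell, 356 had also fallen, 51 had risen and 577 had not been called. Out of 30237 probe sets, that earlier interval held 1955 upward calls (6.47%) and 3330 downward calls (11%). In the following step, from day 12 to day 13, 77 of the 1021 rose further and 13 fell. Of the 984, 132 fell further and 0 rose. Out of 30237 probe sets, this step held 206 upward and 259 downward calls, together 1.54%. The day 13 mean lay beyond the day 12 mean for 751 of those that rose and 791 of those that fell. The changes set side by side here share the day 10 or the day 12 arrays with opposite sign. Noise in these arrays alone lowers the counts in the same direction, by an amount that was not tested. Among single genes, GL1 averaged 7.63, 5.85, 4.19 and 3.25 at days 8, 10, 12 and 13, SUC2 3.75, 4.55, 5.68 and 7.11, and MAM1 4.33, 3.61, 5.11 and 6.24.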

How the data were processed

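The values are log2 signals from the authors' deposited table, made from AGRONOMICS1 tiling arrays with RMA and the TAIR9 gene models, per the submitters' processing notes. No version of these and no hour of harvest was found in the labels. Groups were taken from the sample titles, and 0 other columns of per-sample values were present. With limma 3.58.1 in R 4.3.3, lmFit and eBayes were run on the 18 untreated arrays with age as the factor (residual degrees of freedom 12, prior 4.32), and Benjamini-Hochberg adjustment covered all 30237 probe sets, with a threshold of 0.05. The differences between steps and between intervals were contrasts of the same fit. The procedure was tested on simulated data. Alternatives were array weights, a filter at the median signal, median centring, a further quantile normalization, a fit of the compared arrays only, a replicate block, a trended robust prior, a 1 log2 minimum change and leaving out each array.

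Locus names come from a RefSeq table of another assembly, used for names only. The arrays and the 52 gene lists were chosen with earlier results of these data known, and counts over lists are descriptions. Genes named are the 12 largest rises and falls among called single-locus probe sets with a symbol whose arrays were apart, the leading called members of each list, the 5 smallest p-values per direction of the difference contrasts, and a list of standard markers. Other genes named, further list members among them, were chosen after their values were seen. Promoter motifs were not analysed here.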

Additional observations from a re-analysis of the deposited data

Results flagged for a closer look

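Differences between intervals were the results that most call for a second look. The change from day 10 to day 12 differed from that between day 8 and day 10 for 476 probe sets, and the step from day 11 to day 12 differed from that between day 10 and day 11 for 1. Single values within a group of 3 arrays were not tested for outliers. The step call is AT2G41730, which the fit without day 11 replicate 1 kept and the other fits that left out 1 array did not.

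Among genes whose second interval was the more positive, PDF1.5 differed by 4.75 and PRB1 by 4.33. These averaged 9.38 and 8.79 at day 8, 3.85 and 3.82 at day 10, and 3.08 and 3.17 at day 12, so most of their fall lay before day 10. Both day 12 means were below 3.59, the median of all values, so little further fall could be measured after day 10. LBD41 differed by 2.17 and PSK5 by 2.70, again after a fall from day 8 to day 10, and the PSK5 call was lost without day 10 replicate 2 (adjusted p = 0.055). PAP8 differed by 2.39 and averaged 3.28, 3.25 and 5.62, so its rise lay after day 10. With a day 10 mean below 3.59 that rise is a lower limit of its size.

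Among genes whose second interval was the more negative, ESM1 differed by -2.13 and CA2 by -3.75, each with a rise that was larger before day 10. SPX1 differed by -6.32, PAP17 by -5.73 and GPT2 by -3.36, and these averaged 3.40, 2.94 and 3.28 at day 8, 7.41, 7.32 and 5.14 at day 10, and 5.10, 5.97 and 3.63 at day 12. Their day 8 means were below 3.59, so their rises before day 10 are lower limits.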

How the results depend on the processing

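The 2005 calls became 1016 with the compared arrays alone, 339 with a change of at least 1 log2 unit and 1008 to 1613 with 1 array left out. The 476 interval differences became 1336 with array weights, 856 with the filter on dim probe sets, 309 after median centring, 232 with the compared arrays alone, 845 after quantile normalization and 67 to 818 with 1 array left out. The split into positive and negative was 301 and 175, against 568 and 768 with array weights, 292 and 553 after quantile normalization, 285 and 485 without day 10 replicate 1, and 349 and 469 without day 8 replicate 1. The single step difference became 0 with the compared arrays alone and 0 with the replicate block, and 0 to 3 with 1 array left out. The compared arrays alone called 2 aquaporins and 4 phloem genes. With 1 array left out the counts were 19 to 26 for mitosis, 4 to 6 for DNA replication, 5 for histone H3.1, 2 to 6 for proliferation promoters, 4 to 5 for expansins, 1 to 5 for aquaporins, 5 to 6 for phloem and 3 to 7 for phosphate starvation. Of 141 values of named genes, 0 changed sign under these alternatives while called in the main fit or in the alternative. Sign changes of values called in neither were not counted. When 1 day 10 or day 12 array was left out, 16 to 40 lost their call, and the 141 include values that had no call to lose. Replicate numbers did not pair the arrays: 2 of 45 same-number correlations exceeded 0.1, with a range of -0.248 to 0.166. The replicate block gave 1861 calls and 372 interval differences. Leaving out an array or fitting fewer arrays also leaves fewer degrees of freedom. For the other changes the cause was not tested. The absence of detection calls limits dim genes.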

Other observations

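Further gene families were described after calls had been seen, each gathered by matching gene symbols. Members that the reference table names otherwise are missing, so the families may be incomplete. Some members also belong to the lists above, among them HSP90-7, SAUR23, FBA1, FBA2, PGK1 and TIM, so these counts are not independent of the list counts. The nuclear-encoded subunits of the chloroplast NDH complex, which carries electrons around photosystem I, had 16 measured members, all with a positive change, of which 9 rose and 0 fell (median 0.72). PnsL1 went from a mean of 7.25 to 8.36 (1.1 ± 0.16, limma adjusted p = 0.000644), and NdhM, PnsL2 and NdhT rose by 1.04, 1.02 and 1.02. Leaving out day 10 replicate 1 gave 4 calls, leaving out day 12 replicate 3 gave 2, and centring on array medians gave 7. Of 30 B-box zinc finger proteins, many of them regulators of light responses, 9 rose and 0 fell, BBX14 by 1.59 ± 0.18 from 5.0 to 6.59. BBX16 rose by 1.47, BBX27 by 1.4 and COL2 by 1.12. The B-box count was 6 to 10 with any 1 of the 6 arrays left out, with 6 for day 10 replicate 1 and for day 12 replicate 3. Of 73 SAUR genes 11 rose and 1 fell (median 0.09), with 2 called lower without day 10 replicate 2 or day 12 replicate 1. Of 5 PRE and BEE helix-loop-helix proteins 2 rose, PRE1 and BEE2 (1.80 ± 0.19), while BEE1, BEE3 and PRE5 were not called, with changes between -0.28 and 0.22. Of 19 fasciclin-like arabinogalactan proteins 2 rose and 1 fell.

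Of 19 genes matched by symbol to protein folding in the endoplasmic reticulum 9 fell and 0 rose, with 18 negative changes and a median of -0.41. The member with a positive change, CRT1 (AT4G36290, 0.08, not called), shares its symbol with the calreticulins but is not one of them. It is still counted in the 19 and in the median. Besides PDIL1-1, PDIL1-2 fell by 1.15, the calreticulins CRT1a and CRT1b by 1.02 and 0.86, and the calnexin CNX1 by 0.82. Of 29 glycolysis genes 12 fell and 3 rose (median -0.45). The plastid enolase ENO1 fell by 1.4 ± 0.15 from 6.04 to 4.63, the mutase iPGAM1 by 1.19, the plastid dehydrogenase GAPCP-1 by 1.18, the enolase LOS2 by 0.94 and the aldolase FBA8 by 0.86, while the aldolases FBA5 and FBA7 rose by 1.51 and 0.88. With any 1 of the 6 arrays left out, 9 to 13 glycolysis genes and 8 to 9 folding genes were called lower. The 3 glycolysis genes called higher became 1 without day 10 replicate 1 or day 12 replicate 3 and 2 after centring on array medians. The fasciclin-like genes called higher became 1 without day 10 replicates 1 or 3 or day 12 replicate 3, and the gene called lower was lost without day 12 replicate 3.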
